A study of Drosophila melanogaster with 2 samples.

Results

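Of 5012 CG6813 binding peaks in Drosophila melanogaster embryos, 989 (19.7%) lay in introns at a middle distance from transcription start sites (TSSs). A peak was counted here when its summit fell inside an annotated gene span, in no annotated exon, and over 2000 to 10000 bp from the nearest TSS of any gene, with transposable elements left out. The peaks come from chromatin immunoprecipitation followed by sequencing (ChIP-seq) of whole embryos of both sexes, collected over 0 to 24 h of development. The embryos carried a transgene encoding CG6813 fused at its C-terminus to GFP, and the fusion protein was pulled down with an antibody against GFP from chromatin sonicated to fragments of 200 to 800 bp. There is 1 group, with biological replicates 2 and 3; replicate 1 was not analysed here and no control library was used here. All cell types of the embryo were pooled, so a peak present in few cells and a weak peak present in many cannot be told apart.

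CG6813 belongs to the zinc finger proteins with a zinc-finger-associated domain (ZAD), a large family in insects whose members bind DNA through arrays of C2H2 zinc fingers. Several ZAD proteins are known to bind promoters and chromatin boundaries. Introns of developmental genes in Drosophila often hold enhancers, which control transcription of the host or of a neighbouring gene over a distance.

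The DNA at 6 of the 20 strongest of these peaks is shown, chosen so that the words that differed between summits and flanks can be read in it. They are not typical in this respect, since 6 of the 20 strongest held the forkhead word and 4 the TATA word, and the windows in Raf and Hr4, which are not shown, held neither. Each line holds 201 bases of the dm6 plus strand, 5′ to 3′, centred on the summit, from the RefSeq assembly. Capitals mark the forkhead word GTAAACA and the TATA word TATAAA, on either strand, and 2 overlapping TATA words run together in trx. The middles of those TATA words lay 90 and 88 bp from the summit, near the edge of the window. The middle of the forkhead word lay 24 bp from the summit in S, 23 bp in Oatp30B, 11 bp in Atg17 and 17 bp in for, and the window in Tlk held neither word.
Tlk, chrX:3742121-3742321: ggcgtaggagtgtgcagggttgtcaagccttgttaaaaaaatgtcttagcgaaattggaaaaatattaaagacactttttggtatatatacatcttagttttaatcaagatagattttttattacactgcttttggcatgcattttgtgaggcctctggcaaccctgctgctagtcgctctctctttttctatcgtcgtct
trx, chr3R:14283784-14283984: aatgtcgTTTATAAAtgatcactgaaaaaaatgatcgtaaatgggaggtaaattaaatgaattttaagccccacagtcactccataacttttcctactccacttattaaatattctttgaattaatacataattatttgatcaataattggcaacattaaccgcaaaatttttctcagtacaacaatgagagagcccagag
S, chr2L:1072271-1072471: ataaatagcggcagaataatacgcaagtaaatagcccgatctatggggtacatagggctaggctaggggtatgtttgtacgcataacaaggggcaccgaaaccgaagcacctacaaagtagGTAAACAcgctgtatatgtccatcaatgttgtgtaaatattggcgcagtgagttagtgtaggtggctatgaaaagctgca
Oatp30B, chr2L:9525772-9525972: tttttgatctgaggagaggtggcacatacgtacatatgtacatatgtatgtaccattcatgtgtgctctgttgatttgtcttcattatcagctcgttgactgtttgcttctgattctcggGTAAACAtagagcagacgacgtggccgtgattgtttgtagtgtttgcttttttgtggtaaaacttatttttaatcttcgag
Atg17, chr3R:5672694-5672894: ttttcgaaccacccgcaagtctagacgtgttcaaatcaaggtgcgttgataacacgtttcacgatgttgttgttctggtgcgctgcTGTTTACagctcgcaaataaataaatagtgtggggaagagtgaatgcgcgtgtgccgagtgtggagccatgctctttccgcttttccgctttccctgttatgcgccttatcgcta
for, chr2L:3628853-3629053: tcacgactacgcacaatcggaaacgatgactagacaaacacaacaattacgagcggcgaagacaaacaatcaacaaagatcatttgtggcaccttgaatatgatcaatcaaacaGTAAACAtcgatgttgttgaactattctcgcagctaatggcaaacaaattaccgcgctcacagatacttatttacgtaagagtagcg

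Intronic peaks were less dense the farther they lay from a start site. The 989 peaks fell in 24.2 Mb of intron at the same distance, a density of 40.8 per Mb (exact 95% Poisson interval 38.3 to 43.4). The 871 intronic peaks over 500 to 2000 bp from a TSS had a density of 76.1 per Mb (71.1 to 81.3), and the 253 beyond 10000 bp a density of 14.1 per Mb (12.4 to 15.9). These intervals do not overlap, but they cover counting error only, not differences between collections of embryos. Inside the middle range the density was 49.2 per Mb (43.4 to 55.5) over 2000 to 3000 bp and 24.6 per Mb (17.6 to 33.5) over 9000 to 10000 bp. The value at 7000 to 8000 bp, 39.0 per Mb (31.1 to 48.3), was above those of the bins on either side, 35.6 and 31.5 per Mb, but its interval covers both.

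**Figure D1:**
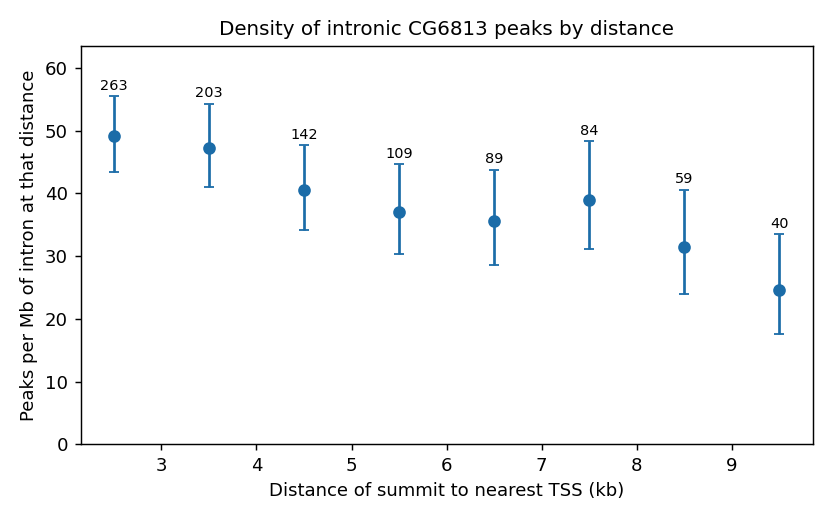
Density of intronic CG6813 peaks per Mb of intron (y axis) in bins of 1000 bp of distance to the nearest TSS (x axis, kb); bars are exact 95% Poisson intervals and the number above each is the peak count. The density is highest at 49.2 per Mb in the nearest bin and lowest at 24.6 per Mb in the farthest.

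The 5 large chromosome arms held similar densities, from 37.3 per Mb (31.8 to 43.4) on 2L to 44.1 per Mb (38.4 to 50.4) on 3L, with overlapping intervals. X carried 204 peaks at 41.7 per Mb (36.2 to 47.9). Chromosome 4, a small chromosome known for its heterochromatin, held no such peak in 0.322 Mb of eligible intron, an interval of 0 to 11.5 per Mb that lies below those of the large arms. The Y chromosome also had none, but its 0.0689 Mb allow up to 53.6 per Mb. No summit lay in an annotated transposable element (0 of 989, exact upper limit 0.372%). These elements were left out of the gene models, not out of the sequence. Their share of the eligible intron was not measured, so the count alone shows no depletion.

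The distance limits separate neighbouring peaks. Just inside the lower limit lay the peak in CG46310, with a pooled signal of 267, and that in CG9171 at 2003 bp, with 242. Just outside lay peaks in NFAT at 1993 bp (387) and Eip75B at 1996 bp (153). At the upper limit, the peaks in Efa6 at 9977 bp (275) and lncRNA:CR32773 at 9989 bp (148) were inside, and those in MESR3 at 10004 bp (603) and spir at 10020 bp (167) were outside.

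The median signal of these peaks was close to that of the whole list, with fewer very strong peaks. The pooled signal, the authors' value for each peak from their caller, ranged from 146 to 2098 with a median of 223 and quartiles of 174 and 320.2. A signal over 1000 was reached by 10 of the 989, against 128 of all 5012 peaks, whose highest value was 3734. The median was 226 over all 5012 peaks, 226 in introns closer to a TSS and 204 beyond 10000 bp. In the separate lists, the median was 159 in replicate 2 (47.4 to 1553) and 73.9 in replicate 3 (21.2 to 660.4). The replicate 2 value was a median of 2.24 times that of replicate 3 (quartiles 1.79 and 2.81), close to the 2.19 over all peaks; as no source used here gives the scaling of the signal, this ratio describes the deposited values only.

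Nearly all of the peaks had a region in both replicates. A region within 200 bp was listed in both for 970 of 989 (98.1%, exact 95% binomial interval 97.0 to 98.8), against 98.3% of all peaks, and 17 were missing in replicate 3 and 2 in replicate 2. The thresholded list was selected by irreproducible discovery rate. A high share follows in part from that selection and is no independent check of the peaks. The per-replicate lists, of 30000 regions each, also hold background, so the strongest 5012 regions of each were counted next. Of the 989, 677 (68.5%, 65.5 to 71.3) stood among these in both replicates, against 70.9% of all peaks, 71.0% of the nearer intronic peaks and 65.2% of the deeper ones. Regardless of the other replicate, 918 stood there in replicate 2 and 741 in replicate 3, and both counts include the 677. Across the 970 peaks the log2 signals of the replicates correlated with Pearson's r at 0.731 and Spearman's rank coefficient at 0.642, a description over peaks that share their libraries.

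**Figure D2:**
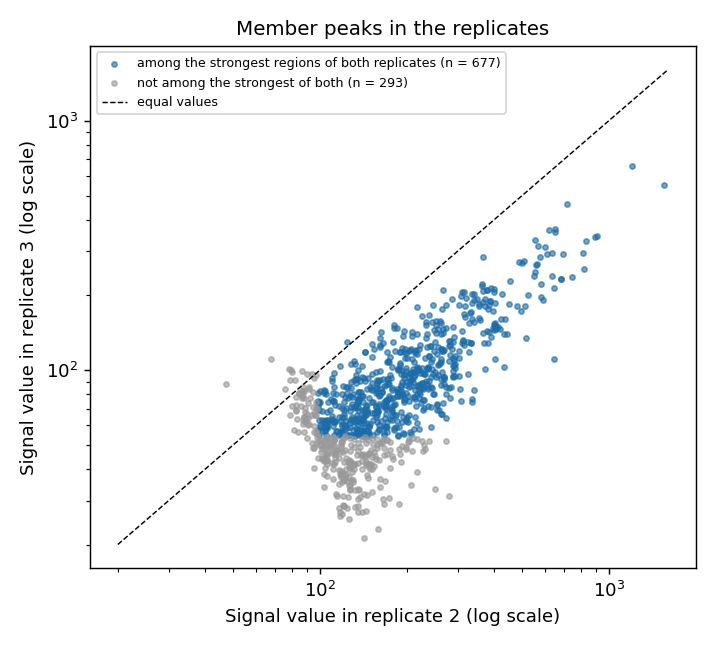
Signal value in replicate 2 (x axis, log scale) against replicate 3 (y axis, log scale) for the 970 peaks listed in both; each point is a peak, blue if among the strongest 5012 regions of both replicates (677). Nearly all points lie under the dashed line of equal values, with a median ratio of 2.24.

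The strongest peaks included those in Tlk, Lrch and trx. The peak in Tlk, which encodes the Tousled-like kinase of chromatin assembly (X, 3742035 to 3742379), had a signal of 1553 in replicate 2, 552 in replicate 3 and 2098 in the pooled list, and lay 2324 bp from the nearest TSS. Lrch, a leucine-rich repeat protein gene, had 1202, 660.4 and 1857 in the same order, so that replicate 3 placed it above Tlk. The peak in trx, the Trithorax histone methyltransferase gene (3R, 14283736 to 14284005), had 896 and 343 in the replicates and 1237 in the pooled list. Each of these peaks stood in the first intron of at least 1 transcript.

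Other strong peaks lay in signalling, transport and autophagy genes. The peak in S, which encodes Star, needed for export of the EGF receptor ligand Spitz (2L, 1072194 to 1072542), had 716 and 462 in the replicates and 1179.5 pooled. Raf, the kinase that activates MEK downstream of Ras (X, 2297587 to 2297852), had 818 and 254, the widest ratio of the 20 strongest at 3.22. The peak in for, a cGMP-dependent protein kinase gene, had 619 and 363, and that in Atg17, of the autophagy machinery, had 648 and 357. Oatp30B, a gene of the organic anion transporters, also had 648 in replicate 2, with 368 in replicate 3.

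Several of the rest of the 20 strongest lay in genes of transcription and RNA regulators. The nuclear receptor gene Hr4 held a peak with 694 in replicate 2 and 291 in replicate 3. A peak with 811 and 295 lay in overlapping spans of CG46321 and Hr3, another nuclear receptor gene. Values in replicates 2 and 3 were 569 and 314 in ush, a zinc finger cofactor of GATA factors, and 608 and 293 in apt. The peak in simj, of the NuRD chromatin complex, had 682 and 231, and that in tara had 633 and 295. Rbfox1, an RNA-binding splicing regulator, had 600.0 and 312, and crp, a basic helix-loop-helix factor, had 555 and 331. CG12769, CG32486, CG13894 and CG34417 also held peaks of the 20, with replicate 2 values of 912, 831, 745 and 637.

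**Figure D3:**
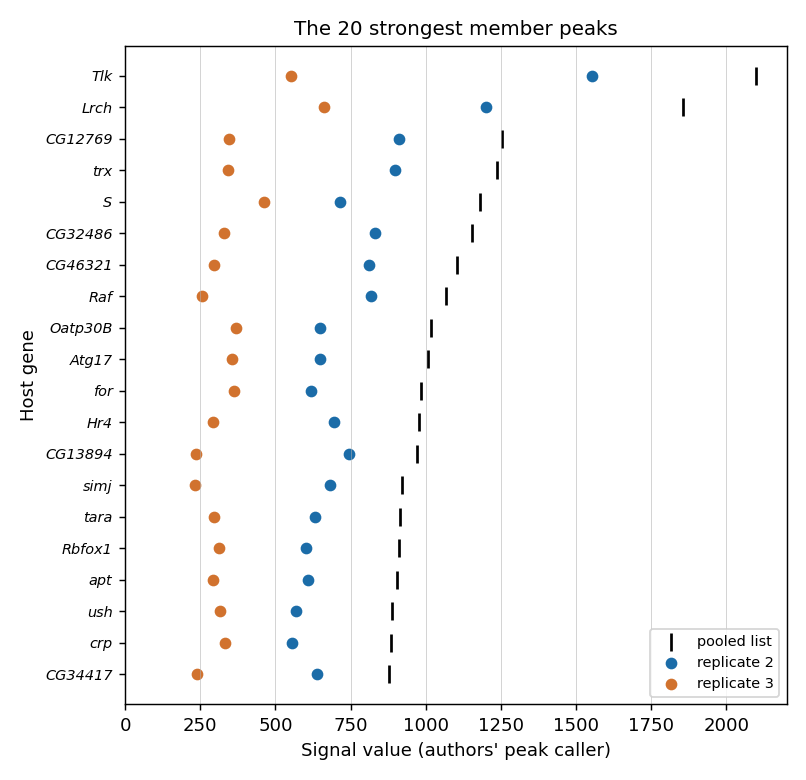
Signal value (x axis) of the 20 strongest middle-distance intronic peaks by host gene (y axis), in replicate 2 (blue), replicate 3 (orange) and the pooled list (black bars). In every one replicate 2 lies above replicate 3, by a ratio of 1.55 to 3.22.

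Of these 20 peaks, 16 lay in the first intron of at least 1 transcript, and the nearest TSS belonged to the host in 15. All 20 were among the strongest 5012 regions of both replicates. Their distances ran from 2195 to 8008 bp, with a median of 3474 bp.

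The first intron held more of the 989 peaks than its share of sequence. In all, 632 (63.9%, exact 95% binomial interval 60.8 to 66.9) lay in the first intron of at least 1 transcript of the host, which covers 46.4% of the eligible bases. For 387 (39.1%, 36.1 to 42.3) the intron was first in every transcript with an intron there, a share not measured over the eligible bases. With first meaning first in at least 1 transcript, the difference was seen at each distance. From over 2000 to 4000 bp the density was 65.0 per Mb (58.1 to 72.5) in the first intron and 30.6 per Mb (25.8 to 36.1) in later ones. From over 4000 to 6000 bp it was 53.3 (45.3 to 62.3) against 26.7 per Mb (21.5 to 32.7), and from over 6000 to 10000 bp 45.6 (38.7 to 53.5) against 25.0 per Mb (20.7 to 29.8). Signals did not follow this, with pooled medians of 221 in the first intron and 224 in later ones.

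Most peaks lay nearest to a start site of their own host. That was the case for 702 (71.0%, 68.0 to 73.8), against 57.7% of eligible bases. The summit lay downstream of the nearest TSS in 66.9%, against 66.2% of bases, so the orientation was as in the sequence at large. The host was protein-coding for 975 peaks (98.6%), and 46 summits lay under more than 1 gene span. The median distance to the nearest TSS was 4213 bp, and the median intron 12520 bp long, close to 12630 bp over the eligible bases. Another thresholded summit lay within 2000 bp of 370 peaks (37.4%) and within 10000 bp of 805 (81.4%).

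The 975 peaks in coding hosts were spread over 582 genes, or 13.8% of the 4224 protein-coding genes with eligible intron. A single peak was found in 360 of them, and 222 held 2 or more. Eip75B, which encodes an ecdysone-induced nuclear receptor, held the most, with 11 peaks with summits spread over 61101 bp, 9 of them in the first intron and all in both replicates. Their signals had a lowest value of 96.6, a median of 165 and a highest of 489 in replicate 2, and 49.3, 79.0 and 272 in replicate 3. The Plexus gene px held 10 peaks and shn, which encodes a zinc finger factor of Dpp signalling, held 9, with replicate 2 medians of 166 and 199. Raf held 8, none in the first intron, and jing, a zinc finger gene, held 7, of which 1 lacked a region in a replicate. The highest pooled signal was 768 in Eip75B, 585 in px, 409 in shn, 1067 in Raf and 536 in jing. Their pooled medians were 263, 230.2, 247, 364 and 305 in the same order, against a median of 223 over the 989 peaks.

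Host genes had a peak at their own promoter more often than other genes with eligible intron. A thresholded summit within 500 bp of a start site was found for 260 of 582 hosts (44.7%, 40.6 to 48.8) and for 689 of 3642 non-hosts (18.9%), with 22.5% over all 4224 genes. Hosts had a median of 11.3 kb of eligible intron and non-hosts 0.969 kb, so genes were split by their eligible length. With over 5 to 10 kb, 42.3% of 142 hosts (34.0 to 50.8) and 16.9% of 472 non-hosts (13.7 to 20.6) had a promoter peak. With over 10 to 20 kb it was 48.2% (40.5 to 56.0) against 21.1% (16.6 to 26.1), and with over 20 to 40 kb 50.9% (41.4 to 60.3) against 17.9% (11.9 to 25.2). Above 40 kb it was 58.8% of 34 hosts (40.7 to 75.4) against 18.8% of 32 non-hosts (7.21 to 36.4). In the shorter genes the intervals overlap, with 34.0% (24.7 to 44.3) against 21.6% (18.1 to 25.5) over 2 to 5 kb and 28.0% (12.1 to 49.4) against 18.5% (16.9 to 20.2) up to 2 kb. With the stronger part of the list (2506 peaks) 27.0% of hosts (22.4 to 32.1) and 11.3% of non-hosts (10.3 to 12.3) had a promoter peak. With a promoter limit of 200 bp the shares were 28.0% (24.4 to 31.8) and 11.6% (10.6 to 12.7).

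Introns of growth and patterning signalling genes were dense in these peaks, and those of ion channel genes were sparse. Densities are given per Mb of eligible intron with exact 95% Poisson intervals, beside 40.2 per Mb over all 4224 coding genes with eligible intron. Of those genes 13.8% were hosts, a share that rose from 1.13% with up to 2 kb of eligible intron to 51.5% above 40 kb. Density also varied with that length. It was 25.4 per Mb up to 2 kb, 58.8 over 2 to 5 kb, 49.1 over 5 to 10 kb and 28.0 above 40 kb. The lists differ in length per gene and were not compared at equal length. In all, 46 genes stand in several lists. The Wnt, Hedgehog and BMP list had 39 peaks in 15 of 37 genes with eligible intron, 124 per Mb (87.9 to 169). The list of receptor tyrosine kinase (RTK), Ras and JNK signalling had 38 in 18 of 38 genes, 106 per Mb (74.8 to 145). The Polycomb, trithorax and chromatin list had 19 in 8 of 41, 124 per Mb (74.8 to 194), Hippo and planar polarity 23 in 11 of 20, 98.0 per Mb (62.1 to 147), and insulin and TOR 10 in 5 of 17, 129 per Mb (61.7 to 237). These intervals lie above 40.2, whereas the ion channel and synapse list, with 6 peaks in 5 of 55 genes, had 7.61 per Mb (2.79 to 16.6). Single genes weigh in several lists. Of the 19 chromatin peaks jing held 7, of the 39 Wnt, Hedgehog and BMP peaks shn held 9, and of the 38 RTK peaks Raf held 8. The intervals count peaks in the same gene as independent and may be too narrow. As the lists were chosen with earlier results known, these densities are a description with no test.

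Receptors, inhibitors and transducers of these pathways were each among the hosts. The insulin receptor gene InR held a peak with signals of 367 in replicate 2 and 285 in replicate 3. The Hedgehog receptor gene ptc held one with 365 and 222, the Dpp receptor gene tkv one with 267 and 141, and the Wnt receptor genes fz and fz2 had strongest peaks of 253 and 151 and of 204 and 93.5. Among inhibitors, aos, which encodes a secreted antagonist of the EGF receptor, had 593 and 190.4, aop, an Ets repressor of the pathway, had 421 and 146, and Dad, an inhibitory Smad, had 349.6 and 193. Upstream regulators of Hippo signalling were represented by ex, with 293 and 106, and kibra, with 213 and 98.2. Every value named was higher in replicate 2. The nearest TSS belonged to another gene for the InR, ptc, tkv, fz, Dad and ex peaks, and to the host for those in fz2, aos, aop and kibra. The aos peak also lay inside the span of CG33158.

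Chromatin and hormone genes were represented beyond trx and Eip75B. A peak with 445 in replicate 2 and 139.7 in replicate 3 lay in overlapping spans of Su(Tpl) and Mi-2, the gene of the NuRD remodelling ATPase. The nearest TSS of that peak was that of asRNA:CR43889. The Polycomb group gene Psc had a peak with 405 and 155. The nuclear receptor list had 26 peaks in 7 of 22 genes, 65.1 per Mb (42.5 to 95.4), an interval that also lies above 40.2. Of the 26 peaks, 11 lay in Eip75B and 5 in Hr4, so this density rests largely on few genes. ImpL2, which encodes a secreted binding protein for insulin-like peptides, had a peak of 378 and 143.

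The intervals of the neural adhesion, muscle, homeobox and Notch lists cover the 40.2 per Mb of all coding genes with eligible intron. Axon guidance and neural adhesion had 44 peaks in 23 of 53 genes (43.4%, against 13.8% over all coding genes with eligible intron), 37.5 per Mb (27.2 to 50.3). These 53 genes held 1.17 Mb of eligible intron, and among all genes with over 20 to 40 kb of it 45.3% were hosts. The list was led by fra, the Netrin receptor gene (563 in replicate 2 and 266 in replicate 3), and caps (526 and 200.2). Mesoderm, muscle and heart had 19, 44.9 per Mb (27.1 to 70.2), and included Mef2 (269 and 92.1) and kirre, needed for myoblast fusion (407 and 149). The segmentation and homeobox list had 15 in 10 of 59 genes, 25.2 per Mb (14.1 to 41.5), with cad at 314 and 206. Notch signalling had 5 peaks, 34.3 per Mb (11.1 to 80.0), of which mam, a coactivator gene, had the strongest at 403 and 150.1. The ion channel list included dnc, a cAMP phosphodiesterase gene (254 and 73.3), and the potassium channel gene Shal (152 and 113). Of 86 genes of cytoplasmic ribosomal proteins, none has eligible intron, so none could be a host.

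The intervals of 5 further lists cover 40.2 per Mb. The cell death and stress list had 5 peaks, 79.8 per Mb (25.9 to 186), with sima, the hypoxia factor gene, at 284 in replicate 2 and 85.8 in replicate 3. BTB and zinc finger factors had 29, 55.3 per Mb (37.0 to 79.4), with sbb at 341 and 156 after ush. Trachea and epidermis had 9, 34.7 per Mb (15.9 to 65.8), with sn, which encodes the actin-bundling protein Fascin, at 397 and 173. Neuronal and glial determination had 10, 33.9 per Mb (16.2 to 62.3), with grh, the Grainyhead factor gene, at 330.3 and 169. RNA-binding and splicing had 23 in 15 of 34 genes (44.1%, against 13.8% over all coding genes with eligible intron), 30.7 per Mb (19.4 to 46.0). In that list shep had 452 and 184, after Rbfox1.

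**Figure D4:**
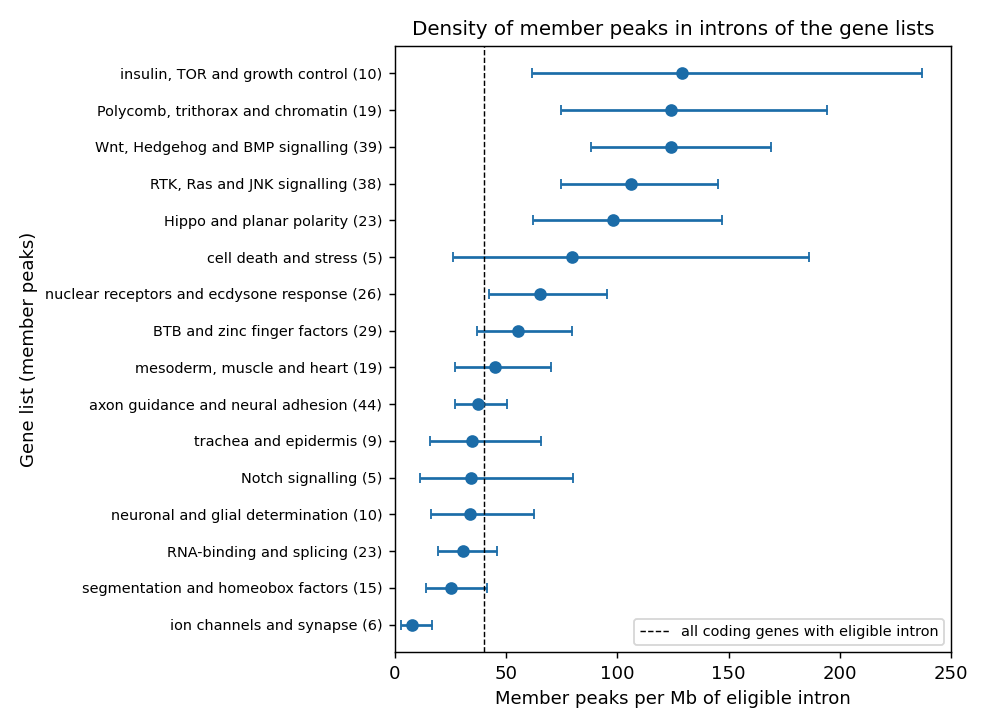
Density of middle-distance intronic peaks per Mb of eligible intron (x axis) in the gene lists (y axis, number of peaks in brackets); points are counts per Mb, bars exact 95% Poisson intervals, and the dashed line is 40.2 per Mb over all coding genes with eligible intron. The intervals of the insulin, Wnt, chromatin, RTK, Hippo and nuclear receptor lists lie above the line and that of the ion channel list, at 7.61 per Mb, below it.

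The forkhead word, which forkhead transcription factors read, was more frequent at summits than in flanks. The 100 bp on each side of each summit were compared with an equal window centred 500 bp away, on the side away from the nearest TSS. GTAAACA stood in 124 of 989 summit windows (12.5%) and in 39 flank windows (3.94%), a difference that passed the exact McNemar test (two-sided, Benjamini-Hochberg adjusted p = 1.62e-11 over 26 motifs, of which 2, or 7.69%, passed). Windows over the eligible introns held it in 4.36%. It was present in 9.78% of all thresholded windows. The share was 10.6% in the nearer intronic peaks and 12.6% in the deeper ones, so it was not particular to the middle distance. It was 8.85% within 500 bp of a TSS and 6.62% in intergenic peaks. Within 50 bp of the summit there were 4.70 words per 100 peaks in each 50 bp, against 1.38 beyond 500 bp, a ratio of 3.41. Other thresholded peaks had 3.07 and 1.22; the difference between the groups was not tested. The exact McNemar call was also made without replicate 2 and without replicate 3, and the difference of 8.59 percentage points became 9.60 and 7.73.

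The word was more frequent in stronger peaks. It stood in 21 of the 100 strongest (21.0%, exact 95% binomial interval 13.5 to 30.3) and in 37 of the 389 weakest (9.51%, 6.79 to 12.9), while flanks of the 4 bins of rank held it in 2.50 to 5.40%. Peaks with the word had a pooled median of 251 and those without 220.4, and 75.8% against 67.4% were among the strongest regions of both replicates. The word is a match of letters and does not show that a forkhead protein binds there.

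The TATA word was also more frequent at summits, but the call was lost without replicate 2. TATAAA stood in 304 summit windows (30.7%) and 213 flanks (21.5%; exact McNemar, adjusted p = 4.18e-05). The share was 31.8% in all thresholded windows, 32.4% in the nearer intronic peaks and 30.8% in the deeper ones, so it was not particular to the middle distance. Without replicate 2 the difference between summits and flanks was 2.57 percentage points and did not pass the exact McNemar test (adjusted p = 0.506). The summit windows also had lower GC content, with a median of 36.8% against 40.8% in the flanks and a lower value in 607 of 989 pairs. Among the 365 pairs within 5 percentage points of each other in GC, an alternative chosen after seeing the data, TATA differed by 5.21 points (exact McNemar, adjusted p = 0.610) and the forkhead word still passed (11.2 points, adjusted p = 1.80e-05). The words of other factors did not pass, among them the homeodomain word TAATTA at 15.4 against 14.7%, the GAGA word GAGAGAG at 4.35 against 4.75%, and the MEF2 word TATTTATA at 6.88 against 4.25% (exact McNemar, adjusted p = 0.136).

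**Figure D5:**
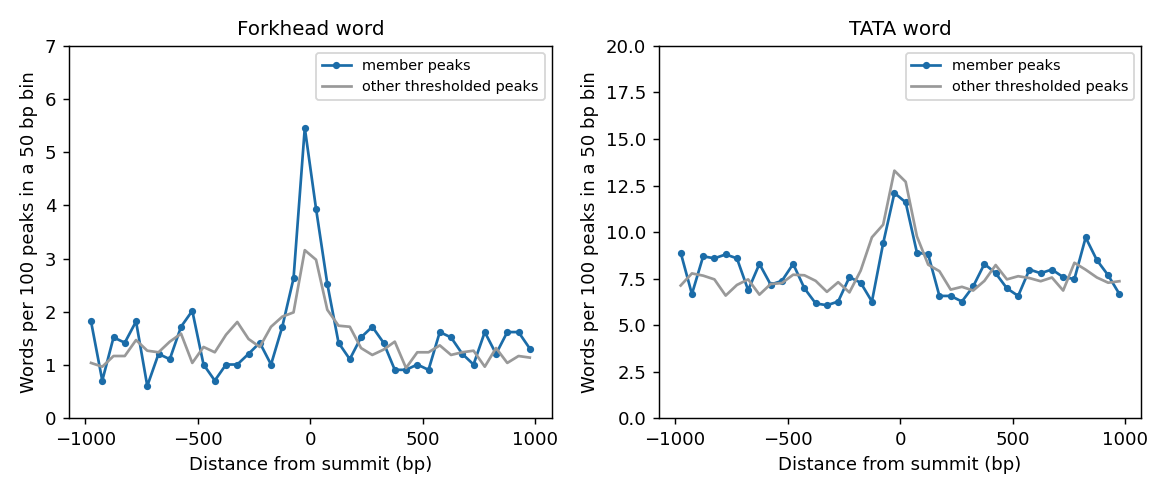
Forkhead word (left) and TATA word (right) per 100 peaks in bins of 50 bp (y axis) by distance from the summit in bp (x axis), for the middle-distance intronic peaks (blue) and all other thresholded peaks (grey). Within 50 bp the blue forkhead curve averages 4.70, against 1.38 beyond 500 bp, and the blue TATA curve 11.9, against 7.90.

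Without a choice of factors, 151 of 2080 6-mers (7.26%) passed the exact McNemar test, 88 higher at summits and 63 in flanks. Of the 88, 59 held at most 1 G or C, and of the 63, 57 held at least 3. The lowest p belonged to AAATAT, in 51.8% of summits and 31.2% of flanks, followed by the word AATATT and then the word TAAATA. Words that are not only A and T also stood out: GTAAAC, inside the forkhead word, was in 18.0 against 8.49%, ACACTG in 158 against 66 windows, AGTGTA in 16.3 against 7.18% and ACAGTG in 18.0 against 9.30%. The words AATATA (34.7 against 21.4%), TGTAAA (26.6 against 15.6%) and ATATTA (27.2 against 16.7%) complete the 10 with the lowest p. The count of passing 6-mers was 38 without replicate 2 and 243 without replicate 3, and 6 among the pairs within 5 percentage points of GC. Peaks share libraries and are not replicates of the experiment, and the p-values say nothing of differences between collections of embryos.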

How the data were processed

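The authors deposited dm6 region lists for replicates 2 and 3, for both pooled, and an optimal list thresholded by irreproducible discovery rate (IDR), per the deposited file listing; the control-normalized tracks it names were not used here. The signal value of each region is deposited as the authors' caller gave it, with a scaling not given in the sources used here. Depth is unknown, so no per-peak count error is given; intervals cover counting error only. The sources used here name no aligner, caller or IDR cutoff. A peak was assigned with BDGP6 gene models (Ensembl release 115), transposable elements left out. Regions were matched within 200 bp of summits. Words were compared in 201 bp windows by exact McNemar tests with Benjamini-Hochberg adjustment at 0.05, in Python 3.11.15 with scipy 1.17.1, after tests on simulated data. Named genes were the 20 strongest peaks, the 5 hosts with most peaks, up to 4 hosts of each list, peaks at the limits, passing motifs and the 10 6-mers of lowest p. The members, the 17 gene lists and motifs were chosen with earlier results of these data known; list entries whose older symbol named another gene were dropped after seeing values, and some items are not reported here. Alternatives changed list depth, replicates, matching distance, annotation, flank side and window width.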

Additional observations from a re-analysis of the deposited data

How the results depend on the processing

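The share of peaks in the first intron (63.9%) and the forkhead call kept their value or their side of the threshold under every alternative run for them. The remaining values moved as follows. In the stronger part of the thresholded list (2506 peaks) there were 479 peaks at 19.8 per Mb, 27.0% of hosts had a promoter peak, 99.6% of peaks had a region in both replicates, 95.0% were among the strongest of both, and 67 6-mers passed. With only peaks among the strongest of both replicates the density was 27.9 per Mb, 37.6% of hosts had a promoter peak and 72 6-mers passed. Leaving out a replicate gave 37.0 (without replicate 2) to 41.6 per Mb, 41.4 to 53.8% of hosts with a promoter peak, 95.3 to 95.4% of peaks in both replicates, 66.7 to 75.3% among the strongest of both, 1 to 2 motifs and 38 to 243 6-mers. With protein-coding start sites and exons alone the density was 44.2 per Mb. Matching within 100 bp gave 92.3% in both replicates and 64.1% among the strongest of both, and within 500 bp 99.2% in both. A promoter limit of 200 bp gave 28.0% of hosts. Leaving out flanks near another summit or on an exon gave 87 6-mers, and windows of 50 bp on each side 92. Pairs within 5 percentage points of GC, chosen after seeing the data, left 1 motif and 6 6-mers. The causes were not tested. No paired analysis was possible because the samples form 1 group. Read depth is not known from the lists, which limits what the signal values show.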
